A study of Homo sapiens with 22 samples.

Results

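The collagen genes were followed through the reprogramming of human fibroblasts. They were taken as every gene whose symbol has the form COL, a number, A and a second number, which gave 44 of the 33694 genes counted. All 44 had at least 1 UMI (a unique molecular identifier, which marks 1 captured mRNA molecule). The cells were BJ fibroblasts, an established human line, grown in microfluidic chips and given 8 daily transfections of non-modified mRNAs that encode POU5F1, SOX2, KLF4, MYC, LIN28 and NANOG. Single cells were captured before the first transfection (D0) and on D3, D5, D7, D9, D11, D13 and D15, with a change of medium on D9. D0 is the only untransfected group here. The fibroblasts were expanded in a medium with serum and moved to a reprogramming medium when transfection began. The reprogramming ran in a low-oxygen incubator, and the expansion of the fibroblasts is described without one. Time in culture, transfection, this change of medium and any change of oxygen therefore cannot be told apart. The transfections ended just before the change of medium on D9, so comparisons across D9 cannot tell these 2 apart either. Each day had 2 pools, A and B, and each pool joined cells of 4 chips that had been frozen. The chips of a pool were independent, and the pools of a day are the study's replicates, so p-values measure the spread between pools of chips of 1 cell line.

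Collagens are secreted or membrane proteins whose chains wind 3 at a time into a triple helix. Types I, II, III, V and XI pack into the striped fibrils of connective tissue, type IV builds the sheet-like network of the basement membrane under epithelia, and type VI forms beaded filaments around cells. Dermal fibroblasts are best known for types I, III, V and VI, cartilage for types II, IX and XI, and the earliest epithelia of the embryo for type IV. In this account the members are described by these classes: 11 fibril-forming, 10 fibril-associated, 6 basement membrane, 5 beaded filament, 4 transmembrane, 3 short-chain network, 2 multiplexin, 1 anchoring fibril and 2 other genes.

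Of the 44 genes, 30 had a UMI in at least 5% of cells and were tested. The other 14 never exceeded 4.35 counts per 1000000 UMIs (CPM) in any pool. A smaller set of 22 reached 10 CPM in both pools of at least 1 day. The reads mark the 3' end of each mRNA, so a level is compared here only with the same gene in other pools and not with other genes.

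Promoter sequence is shown for some members that moved over the time course and had an entry: the pair COL4A1 and COL4A2, which rose from D0 to D15 and share 1 promoter region, COL25A1 and COL26A1, which started near 0, and COL6A2 and COL6A3, which fell. Others that moved and had an entry, such as COL10A1, COL12A1 and COL15A1, are not shown. The sequences are from a set of RefSeq promoters (GRCh38.p14), and the set at hand had an entry for 32 of the 44 genes. COL1A1, COL1A2, COL2A1, COL3A1, COL6A1, COL9A3 and COL14A1 are among those with no entry used here. COL4A1 and COL4A2 start in opposite directions with 126 bases between them (chr13:110307158-110307283, plus strand shown, reading toward COL4A2). The other type IV pairs are also placed head to head, with 418 bases between COL4A4 and COL4A3 and 379 between COL4A6 and COL4A5. For the single genes the 250 bases before the start are shown on the gene's own strand: COL25A1 at chr4:109302659-109302908 (minus), COL26A1 at chr7:101362625-101362874 (plus), COL6A2 at chr21:46097862-46098111 (plus) and COL6A3 at chr2:237414165-237414414 (minus). Capitals mark 3 short motifs searched on both strands: the CCAAT box (CCAAT), the GC box (GGGCGG) and the TATA box (TATAAA).
COL4A1-COL4A2: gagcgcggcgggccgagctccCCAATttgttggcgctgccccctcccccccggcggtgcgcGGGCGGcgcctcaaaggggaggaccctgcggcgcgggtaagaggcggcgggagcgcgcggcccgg
COL25A1: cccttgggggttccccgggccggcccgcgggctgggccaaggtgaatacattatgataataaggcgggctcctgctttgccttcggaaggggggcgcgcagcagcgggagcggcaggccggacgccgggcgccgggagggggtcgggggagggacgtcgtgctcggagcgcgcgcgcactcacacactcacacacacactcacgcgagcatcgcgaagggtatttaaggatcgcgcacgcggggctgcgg
COL26A1: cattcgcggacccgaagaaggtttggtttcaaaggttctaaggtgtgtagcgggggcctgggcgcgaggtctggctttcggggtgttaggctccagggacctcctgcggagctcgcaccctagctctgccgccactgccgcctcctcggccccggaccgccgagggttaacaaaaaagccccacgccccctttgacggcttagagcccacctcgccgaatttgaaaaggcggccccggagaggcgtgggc
COL6A2: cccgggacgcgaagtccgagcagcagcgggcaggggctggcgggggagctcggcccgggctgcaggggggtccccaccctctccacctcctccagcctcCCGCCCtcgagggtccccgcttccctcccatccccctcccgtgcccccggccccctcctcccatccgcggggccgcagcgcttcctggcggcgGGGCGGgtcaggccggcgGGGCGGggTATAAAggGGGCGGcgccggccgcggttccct
COL6A3: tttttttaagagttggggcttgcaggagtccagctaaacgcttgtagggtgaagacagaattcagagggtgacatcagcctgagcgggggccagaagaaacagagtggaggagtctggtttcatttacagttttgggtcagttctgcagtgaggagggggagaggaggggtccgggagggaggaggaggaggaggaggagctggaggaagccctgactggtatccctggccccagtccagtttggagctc
The COL4A1-COL4A2 interval holds 1 CCAAT box and 1 GC box, and the COL6A2 promoter holds 4 GC boxes and 1 TATA box. No match lay in the windows of COL25A1, COL26A1 or COL6A3. Among the 32 members with an entry, 11 held a CCAAT box, 21 a GC box and 7 a TATA box, against 32%, 42.6% and 10.7% of the 35116 promoters of the same length. An octamer (ATGCAAAT), the site type of POU factors, lay before 2 members, COL19A1 and COL23A1, against 1.63% of promoters. A member was counted if any of its entries matched (44 entries for 32 members), while the shares count single entries. Members with several entries thus had more chances, and the counts and shares are unlike measures. The matches shown do not overlap one another, and a match is a stretch of letters, not a site shown to be used.

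After cells with under 1000 genes or over 10% mitochondrial UMIs were left out, 41975 of 44197 cell barcodes remained, with 33181614 to 180056814 UMIs and 571 to 6142 cells per pool. The median depth was 23717 to 80168 UMIs per cell. Among the 231 pairs of the 22 libraries, 168 shared barcodes, at most 41 in a pair or 1.63% of the smaller library. The fibroblast label of D0 was borne out by its markers: all 15 genes of a mesenchymal list were present, with a summed level of 12840 to 13420 CPM, while 15 epithelial and pluripotency genes summed to 56.6 to 58.1 CPM and LIN28B was at 0. By D15 the lists stood at 1438 to 1852 CPM and 5732 to 5980 CPM. S100A4 was the largest part of the mesenchymal sum at D0, at 6587 and 6193 CPM, and stood at 81.8 and 104.6 CPM at D15. TAGLN went the other way, from 295.8 and 292.5 CPM at D0 to 3003 and 2248 at D11 and 646.5 and 866.3 at D15. THY1 went from 501.9 and 467.7 CPM at D0 to 317.2 and 362.7 at D15. The other genes of the mesenchymal list were also lower at D15 than at D0. Endothelial genes summed to at most 31.2 CPM and blood genes to at most 23.9 CPM in any pool. A list of 5 keratinocyte genes summed to 293 to 304 CPM at D0 and 107 to 113 CPM at D15, nearly all of it KRT10, and its other genes KRT1, KRT5, KRT14 and TP63 were under 1 CPM in every pool. A list of 8 mesendoderm genes went from 0.138 to 0.143 CPM at D0, with CER1, EOMES, FOXA2, SOX17 and T at 0, to 150.5 to 202 CPM at D11 and 91.4 to 126 CPM at D15. In a sum over a pool, fewer cells of a type and less mRNA per cell cannot be told apart.

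Collagen mRNA made up 0.379% and 0.417% of all UMIs in the D0 pools and 0.110% and 0.128% in the D15 pools. In between it did not follow a single course. It was 0.281% and 0.247% at D3, 0.747% and 0.382% at D5, and 0.232% and 0.610% at D7. It was then 0.223% and 0.201% at D9, 0.322% and 0.400% at D11, and 0.366% and 0.215% at D13. The D15 pools were the lowest of all 16 and did not overlap with any other day. Pool A of D5 and pool B of D7 stood far above the other pool of their day: 14 of the 30 tested genes were over 1.5 times higher in pool A at D5, and 19 of 30 over 1.5 times higher in pool B at D7. Other days also differed gene by gene, with 13 over 1.5 times higher in A and 2 in B at D13, and 6 in A and 9 in B at D3. The share of all genes beyond this limit was not counted, so these pool differences are not read as particular to collagens. The cell filter bore on D15, where the mean share was 0.119% and became 0.236% when cells had to hold 2000 genes and stay within 5% mitochondrial UMIs, in pools whose median mitochondrial share was 5.69% and 6.22%. D9 was then the lowest day, at 0.211%. These stricter limits kept 168 and 357 cells of the D15 pools, or 29.4% and 16.9%. Cells with more mesenchymal than epithelial markers were 16.1% and 23.2% of those kept, against 8.41% and 11.2% before, and the part of this in the higher share was not tested.

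**Figure D1:**
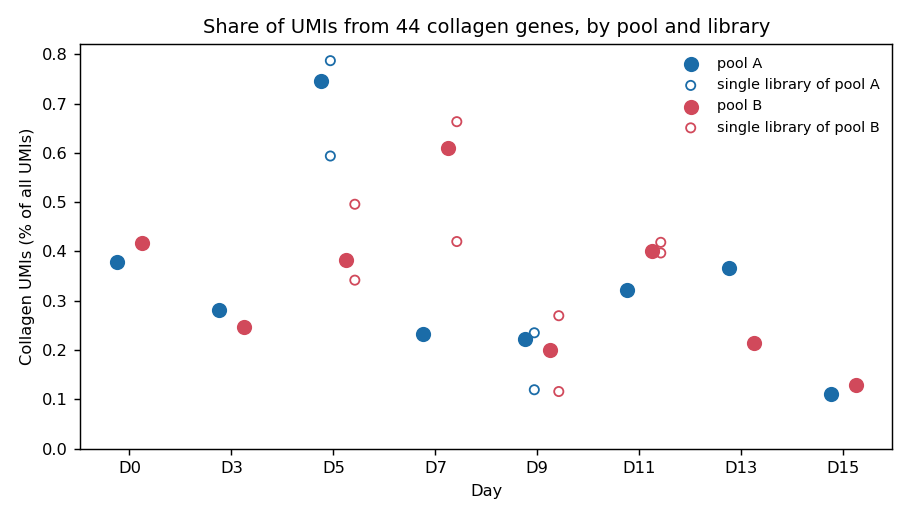
Collagen UMIs as a percentage of all UMIs (vertical axis) on each day. Filled points are pools, and open points are the 2 libraries of pools that were captured as 2 aliquots. D5 A and D7 B stand highest, both D15 pools are lowest, and the first libraries of D9 A and D9 B lie at 0.120% and 0.116% against 0.235% and 0.270% in the second.

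Some pools were captured as 2 libraries, which the study's methods describe as separately thawed aliquots and which are summed in each pool value. They did not always match. At D9 the first library had 0.120% collagen UMIs in pool A and 0.116% in pool B, and the second had 0.235% and 0.270%. The first library of D9 A held only 143 cells against 1599 in its second, while those of D9 B held 889 and 764. Cells with more mesenchymal than epithelial markers made up 39.9% and 40.5% of the first libraries and 53.2% and 54.2% of the second, so cell makeup moved with the collagen share. Its part in the result was not tested. Whether the libraries of a D9 pool came from the same frozen cells was not tested either, and a D9 pool value is a sum over unlike libraries. Single libraries were read for COL1A1, COL6A2, COL3A1, COL4A2 and COL2A1. COL1A1, COL6A2 and COL3A1 were lower in the first library of both D9 pools. Among these COL1A1 showed the gap most plainly, at 128 and 186 CPM in the first libraries and 570 and 692 CPM in the second. COL4A2 and COL2A1 did not share this gap. COL4A2 was 70.19 and 69.9 CPM in the first and 65.02 and 72.24 in the second. COL2A1 was 43.46 and 25.51 CPM in the first and 21.97 and 24.58 in the second. In other pools COL6A2 was 1696 and 870 CPM in the libraries of D5 A and 1057 and 418.8 in those of D5 B. It was 474.5 and 1162 CPM in those of D7 B and 394.9 and 372.5 in those of D11 B.

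The make-up of the collagen mRNA shifted by class. Basement membrane chains were 0.998% ± 0.0053 (SD, n = 2 pools) of collagen UMIs at D0, 2.87% ± 1.33 at D5, 6.71% ± 0.82 at D9 and 13.5% ± 0.17 at D15. Beaded filament chains moved the other way, from 36.4% ± 1.53 at D0 to 27.4% ± 2.40 at D9 and 13.7% ± 0.21 at D15. Fibril-forming chains kept a share of 58.4% ± 1.57 at D0 and 61.1% ± 1.19 at D15. The fibril-associated class went from 1.86% ± 0.030 to 4.50% ± 0.14 and the multiplexins from 0.874% ± 0.018 to 3.85% ± 0.70. For the basement membrane and beaded filament classes the gap between D0 and D15 was many times the spread between pools of either day. These shares add up over genes of unlike length and capture and describe the libraries alone.

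**Figure D2:**
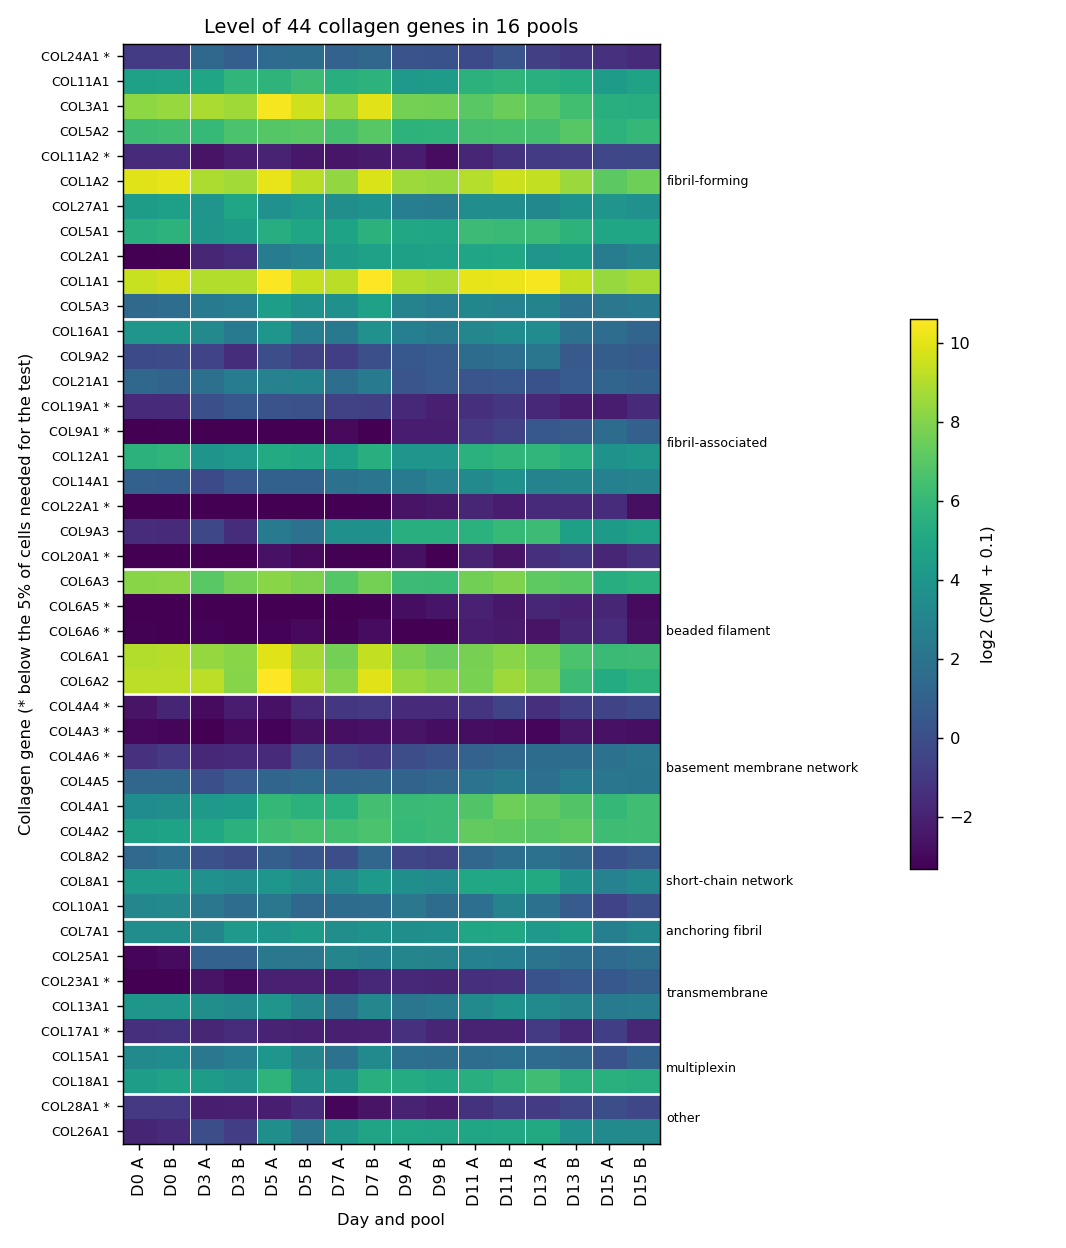
Level of each of the 44 collagen genes (rows, grouped by class) in the 16 pools (columns), as log2 of CPM plus 0.1. COL1A2, COL3A1, COL6A1, COL6A2 and COL6A3 are dimmer at D15 than at D0. COL2A1, COL9A3, COL25A1 and COL26A1 go from dark to bright, and the genes with an asterisk stayed at or below 4.35 CPM.

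Type I collagen, the main fibril of skin and bone, is made of COL1A1 and COL1A2 chains. COL1A1 (chr17:50184101-50201632, minus strand, GRCh38) stood at 711 and 854 CPM in the D0 pools, 509 and 514 at D3, 1498 and 669 at D5, 571 and 1575 at D7, 522 and 465 at D9, 1091 and 1201 at D11, 1391 and 646 at D13, and 355 and 424 at D15. COL1A2 (chr7:94394895-94431227, plus strand) stood at 986 and 1088 CPM at D0, 471 and 405 at D3, 1149 and 576 at D5, 323 and 919 at D7, 386 and 356 at D9, 535 and 763 at D11, 655 and 375 at D13, and 140 and 184 at D15. Both genes were lowest at D15, and both had pools at D5 and D7 that differed more from each other than most days did. From D0 to D15 COL1A2 fell by 2.74 ± 0.43 (SE) on the log2 scale (adjusted p = 1.1e-04, edgeR's quasi-likelihood test with Benjamini-Hochberg adjustment over 12794 genes). COL1A1 changed by -1.07 ± 0.43 in the same test, with an adjusted p of 0.043, which did not pass the threshold of 0.01. Each SE of a log2 change was taken as the size of that change divided by the square root of the test's F statistic.

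COL3A1, the chain of the thin fibrils of soft tissue, was 307 and 349 CPM at D0, 464 and 400 at D3, 1398 and 769 at D5, 358 and 1035 at D7, 207 and 204 at D9, 132 and 181 at D11, 134 and 84.7 at D13, and 42.0 and 41.4 at D15. From D9 on all 8 pools lay below both D0 pools. It fell by 3.04 ± 0.41 from D0 to D15 (edgeR's quasi-likelihood test, adjusted p = 2.9e-05). Type V chains, which set the diameter of type I fibrils, had a different course. COL5A1 was 42.2 and 51.4 CPM at D0, 16.6 and 19.8 at D3, 76.6 and 71.1 at D11, and 29.5 and 29.8 at D15. COL5A2 was 74.0 and 81.3 CPM at D0, 123 and 132 at D5, 51.7 and 53.9 at D9, 91.9 and 129 at D13, and 51.2 and 62.8 at D15. Neither passed the test from D0 to D15, at -0.72 ± 0.26 for COL5A1 and -0.51 ± 0.27 for COL5A2. The remaining type V chain, COL5A3, was 2.74 and 3.10 CPM at D0, 21.5 and 13.7 at D5, 12.7 and 25 at D7, and 4.49 and 5.28 at D15.

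COL2A1 (chr12:47972967-48004554, minus strand), the fibril chain of cartilage, had the largest fold between its highest and lowest day among the tested members, a fold that rests on 1 UMI at D0. Its level was 0 and 0.0068 CPM in the D0 pools, 0.181 and 0.252 at D3, 5.92 and 7.23 at D5, 19.8 and 25.1 at D7, 24.3 and 25 at D9, 29.2 and 32.2 at D11, 16.6 and 19.3 at D13, and 5.70 and 7.82 at D15. Both pools of every day up to D11 lay above both pools of the day before, except at D9, where both pools lay within the D7 range. The D0 pools held 1 UMI of COL2A1 in all, against 55 at D3, a ratio of 70.5 with an exact 95% counting interval of 12.1 to 2834. COL11A1, a partner of type II in cartilage fibrils, was already present at D0 (25.5 and 26 CPM). It reached 53.0 and 75 CPM at D5, 18.0 and 19.9 at D9, 50.3 and 56.7 at D11, and 20.6 and 26.1 at D15. COL27A1, a chain of cartilage and developing bone, was 19.8 and 23.1 CPM at D0, 6.13 and 5.94 at D9 and 15.3 and 13.2 at D15.

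The cartilage marker genes did not all follow. Of a list of 5 chondrocyte genes (ACAN, SOX9, COMP, MATN3 and HAPLN1), 3 were at 1 CPM or more at D0 and 4 at D11, and the list's sum was 8.19 to 9.0 CPM at D0, 62.4 to 76.6 CPM at D11 and 85.2 to 173 CPM at D13. From D0 to D15 HAPLN1 rose by 5.03 ± 0.29 and COMP by 3.39 ± 0.55, while SOX9, the cartilage regulator, fell by 0.75 ± 0.22 (edgeR's quasi-likelihood test, adjusted p = 1.9e-08, 1.4e-04 and 0.0096). Their part in the COL2A1 course was not tested.

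COL4A1 and COL4A2, the ubiquitous chains of the basement membrane, had a course of their own. COL4A1 was 10.9 and 11.6 CPM at D0, 17.9 and 21.1 at D3, 61.6 and 48.8 at D5, 48.5 and 89.1 at D7, 67.6 and 71.8 at D9, 116 and 188 at D11, 156 and 115 at D13, and 62.7 and 80.0 at D15. COL4A2 was 24.1 and 27 CPM at D0, 32.1 and 49.2 at D3, 80.2 and 93.1 at D5, 83.0 and 103 at D7, 65.6 and 71.2 at D9, 153 and 142 at D11, 127 and 144 at D13, and 78.9 and 82.7 at D15. All 14 later pools of both genes lay above both D0 pools. COL4A1 rose by 2.61 ± 0.29 and COL4A2 by 1.60 ± 0.24 from D0 to D15 (edgeR's quasi-likelihood test, adjusted p = 5.6e-06 and 6.7e-05). COL4A5, a chain of kidney and other specialised basement membranes, was 2.31 and 2.56 CPM at D0 and 4.37 and 4.12 at D15, a change of 0.74 ± 0.30 that did not pass. COL4A3 stayed at or under 0.0841 CPM in every pool, while COL4A6 was at most 0.401 CPM at D0 and 4.35 CPM at D15.

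Type VI collagen, which links cells to the surrounding matrix, is built from COL6A1, COL6A2 and a further chain such as COL6A3. COL6A1 was 523 and 564 CPM at D0, 994 and 427 at D5, 231 and 173 at D9, 198 and 104 at D13, and 72.2 and 75.8 at D15. COL6A2 was 610 and 612 CPM at D0, 1524 and 585 at D5, 271 and 1010 at D7, 340 and 273 at D9, 246 and 76.5 at D13, and 38.5 and 50.4 at D15. COL6A3 was 286 and 295 CPM at D0, 131 and 207 at D3, 288 and 238 at D5, 76.6 and 71.2 at D9, 204 and 243 at D11, and 41.9 and 48.1 at D15. For all 3 genes both D15 pools were lower than any other pool. They fell from D0 to D15 by 2.94 ± 0.48, 3.84 ± 0.68 and 2.75 ± 0.28 in the order COL6A1, COL6A2 and COL6A3 (edgeR's quasi-likelihood test, adjusted p = 1.4e-04, 3.0e-04 and 2.2e-06).

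Fibril-associated chains, which sit on the surface of fibrils, split. COL9A3, a chain of the type IX collagen that decorates cartilage fibrils, was 0.246 and 0.231 CPM at D0, 0.724 and 0.258 at D3, 5.51 and 3.66 at D5, 12.5 and 12.5 at D7, 42.2 and 44.2 at D9, 48.6 and 65.0 at D11, 76.0 and 24.3 at D13, and 19.4 and 24.8 at D15. From D5 on every pool lay above every pool of D0 and D3. Its partner COL9A2 was 0.792 and 0.856 CPM at D0 and 1.63 and 1.42 at D15, with a change of 0.82 ± 0.47 that did not pass. The gene TCFL5 overlaps COL9A3 on the other strand and reached 6.50 CPM.

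COL12A1, which links fibrils to other matrix, was 49.1 and 56.6 CPM at D0, 15.0 and 17.9 at D3, 16.1 and 15.3 at D9, 48.3 and 55.3 at D11, 58.0 and 42.4 at D13, and 14.3 and 16.3 at D15. It was therefore low on 3 separate days, with D11 and D13 near D0. COL16A1 was 15.2 and 16.8 CPM at D0 and 3.01 and 2.24 at D15. COL14A1 went from 1.82 and 1.71 CPM at D0 to 9.76 and 13.3 at D11 and 6.78 and 7.58 at D15. COL21A1 peaked at 7.15 and 7.77 CPM at D5 and was 2.39 and 2.05 CPM at D0.

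Among the remaining classes, COL7A1, the anchoring fibril below the epidermis, was 11.3 and 11.9 CPM at D0, 29.5 and 32.1 at D11 and 6.36 and 9.15 at D15. COL8A1, a short-chain network gene, was 21.0 and 19.7 CPM at D0, 31.2 and 31.7 at D11, 35.8 and 14.4 at D13 and 7.26 and 10.2 at D15. COL13A1, a membrane collagen of cell contacts, was 16.3 and 16 CPM at D0, 4.31 and 4.98 at D9 and 5.46 and 5.62 at D15. COL18A1, whose C-terminal fragment is endostatin, was 22.8 and 25.9 CPM at D0, 54.6 and 15.4 at D5, 81.3 and 50.6 at D13 and 46.8 and 41.2 at D15. COL10A1, another short-chain gene, went from 8.59 and 9.23 CPM at D0 to 0.603 and 0.972 at D15, and the multiplexin COL15A1 from 9.79 and 11 CPM to 1.09 and 1.90. The COL18A1 locus overlaps exons of SLC19A1 on the other strand, which reached 17.8 CPM.

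A pair of genes outside the classic matrix classes started near 0. COL26A1 was 0.174 and 0.224 CPM at D0, 0.937 and 0.470 at D3, 12.1 and 4.59 at D5, 16.3 and 27.8 at D7, 30.7 and 28.3 at D9, 29.2 and 32.8 at D11, 35.7 and 13.3 at D13, and 9.80 and 9.26 at D15. COL25A1, a membrane collagen of neurons and muscle, was 0.012 and 0.034 CPM at D0, 1.98 and 2.00 at D3, 4.61 and 4.51 at D5, 7.89 and 6.79 at D7, 7.91 and 7.58 at D9, 6.99 and 6.49 at D11, 4.08 and 3.17 at D13, and 2.86 and 3.39 at D15. The D0 pools held 7 UMIs of COL25A1 and the D3 pools 488, a ratio of 89.3 (exact 95% counting interval 43.0 to 223). At each later day every pool of both genes lay above both D0 pools.

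**Figure D3:**
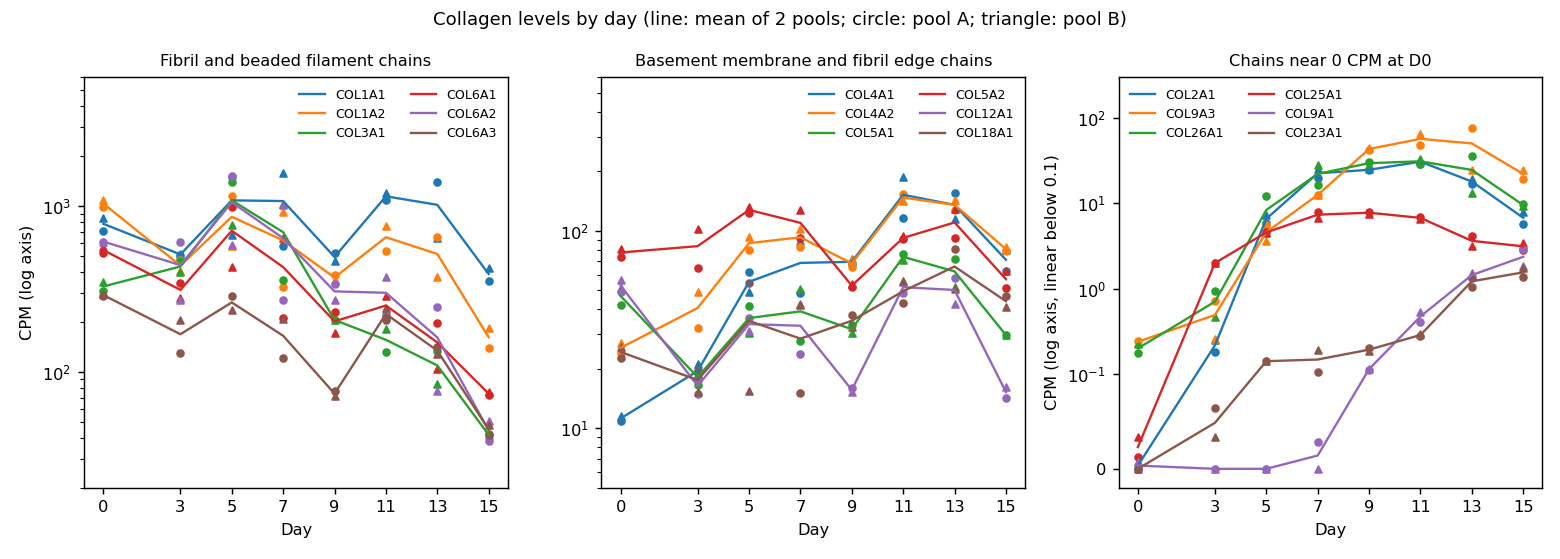
CPM of 18 collagen genes by day on a log axis (the right panel is linear below 0.1). Lines join the means of the 2 pools, circles are pool A and triangles pool B. COL3A1 and the type VI chains are lowest at D15, COL4A1 and COL4A2 are highest at D11, and COL2A1, COL9A3, COL25A1 and COL26A1 lie above their D0 level in both pools of each day from D5 on.

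Among the 30 tested genes the highest mean fell on D11 for 12, on D5 for 7, on D0 for 6, on D13 for 2, on D3, D7 and D9 for 1 each, and on D15 for 0. D15 was the highest day for 8 of all 44 members, each of them among the 14 not tested. The 5% limit counts cells of all days together, of which the D15 pools held 571 and 2108. Adjacent days were compared next, to ask between which days the members moved, with a call at an adjusted p under 0.01 and a log2 change over 0.25.

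From D0 to D3, 2 of 30 members rose and 3 fell, against 13.1% and 12.6% of all 12794 tested genes. The risers were COL25A1 (6.38 ± 0.33) and COL2A1 (5.69 ± 0.64), and those that fell were COL8A2 (-1.73 ± 0.36), COL12A1 (-1.71 ± 0.24) and COL5A1 (-1.39 ± 0.26). The median log2 change of the members was -0.56, and that of all genes -0.06. The count was 3 with D0 B left out, when COL8A2 and COL5A1 no longer passed. From D3 to D5, 5 members rose and 0 fell, against 3.2% of all genes that rose and 46 of the 12794 that fell. The 5 members that rose were COL2A1 (4.83 ± 0.32), COL26A1 (3.53 ± 0.50), COL9A3 (3.23 ± 0.48), COL4A1 (1.44 ± 0.28) and COL25A1 (1.14 ± 0.22), and 28 of the 30 members had a change above 0 with a median of 0.91. Each pool bore on this count, which was 3 without D3 A or D5 B and 2 without D3 B or D5 A. COL2A1 passed in all 4 cases. With the stricter limits on cells 3 members rose, and COL25A1 and COL4A1 were lost.

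From D5 to D7 only COL2A1 passed (1.76 ± 0.27, adjusted p = 0.0021 in edgeR's quasi-likelihood test), against 1.81% of all genes that rose, and it was lost without D5 A, D5 B or D7 B and with the stricter limits on cells. From D7 to D9, 6 members fell and 0 rose, against 2.78% of all genes that fell. Of all 12794 genes, 356 fell and 587 rose. The 6 members that fell were COL3A1 (-1.79 ± 0.39), COL21A1 (-1.67 ± 0.34), COL5A3 (-1.51 ± 0.34), COL11A1 (-1.34 ± 0.30), COL6A3 (-1.19 ± 0.26) and COL12A1 (-1.11 ± 0.24), with a median over the members of -0.56. Their adjusted p lay between 0.0056 and 0.0099. With the stricter limits on cells 4 members fell, and COL6A3 and COL5A3 were lost. Without D7 B, D9 A or D9 B the count was 0, and with the second library of each D9 pool alone it was 2.

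From D9 to D11, 4 members rose and 0 fell, against 2.92% of all genes that rose and 150 of the 12794 that fell. COL8A2 rose by 2.12 ± 0.37, COL12A1 by 1.71 ± 0.24, COL6A3 by 1.57 ± 0.26 and COL11A1 by 1.48 ± 0.30. COL12A1, COL6A3 and COL11A1 thus fell from D7 to D9 and rose from D9 to D11, comparisons that share the D9 pools. Of the 30 members 25 had a change above 0, with a median of 0.84 against 0.05 over all genes. With the stricter limits on cells 3 members rose, and COL6A3 was lost. The count was 0 without D9 A or D9 B and 1 without D11 A or D11 B, and 4 with the second library of each D9 pool alone.

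From D11 to D13 and from D13 to D15, 0 members passed, against 0.117% and 0.086% of all genes in either direction (edgeR's quasi-likelihood test). At an unadjusted p under 0.05 there were 4 and 20 of 30 members, against 16.2% and 23.2% of all genes, and DESeq2 called 1 and 7 members, against 3.7% and 5.11% of all genes. From D13 to D15 the change was below 0 for 28 of 30 members, with a median of -1.0. This median was -0.46 with the stricter limits on cells. Over cells with more mesenchymal than epithelial markers alone it was -0.21, with 19 members below 0 and 11 above. Such cells were 33.8% and 17.9% of the D13 pools and 8.41% and 11.2% of the D15 pools, and the part of this in the lower levels was not tested. COL12A1 had the lowest adjusted p, 0.012, with 58.0 and 42.4 CPM at D13 and 14.3 and 16.3 at D15. Without D13 B, 2 members passed.

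The end point was compared with the start, to ask what the reprogrammed culture kept. From D0 to D15, 7 of the 30 members rose and 12 fell, against 26.8% and 26.7% of all genes. Those that rose were COL2A1 (10.59 ± 0.51), COL25A1 (7.0 ± 0.33), COL9A3 (6.46 ± 0.55), COL26A1 (5.51 ± 0.56), COL4A1, COL14A1 (1.96 ± 0.27) and COL4A2. The fitted values of COL2A1 and COL25A1 rest on 1 and 7 UMIs at D0, and by counting alone the D15 level was 2229 times that of D0 for COL2A1 (95% interval 399 to 88150) and 144 times for COL25A1 (69.1 to 361). These intervals are wider than the SE of the fitted values implies. Those that fell were COL6A2, COL10A1 (-3.52 ± 0.48), COL3A1, COL6A1, COL15A1 (-2.83 ± 0.45), COL6A3, COL1A2, COL16A1 (-2.68 ± 0.55), COL12A1 (-1.85 ± 0.25), COL13A1 (-1.61 ± 0.35), COL8A2 (-1.34 ± 0.37) and COL8A1 (-1.28 ± 0.34). By class, the 3 beaded filament and the 3 short-chain network genes all fell, 2 of 3 basement membrane genes rose and 0 fell, and of 9 fibril-forming genes 1 rose and 2 fell. With each pool of the 2 days left out in turn the count was 15 to 17, and COL16A1, COL8A2, COL8A1 and COL13A1 were each lost at least once. With the stricter limits on cells 7 rose and 7 fell, against 22.6% and 22.3% of all genes. The 5 that no longer passed were COL16A1, COL8A2, COL12A1, COL15A1 and COL8A1, whose change was then 0.18.

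The balance of the 2 chains of type I collagen was followed across the days. There were 0.721 and 0.784 COL1A1 UMIs for each COL1A2 UMI at D0, 1.08 and 1.27 at D3, 1.3 and 1.16 at D5, 1.77 and 1.71 at D7, 1.35 and 1.31 at D9, 2.04 and 1.57 at D11, 2.12 and 1.73 at D13, and 2.55 and 2.30 at D15. All 14 later pools lay above both D0 pools, and the geometric mean went from 0.752 to 1.61. This and the ratios that follow were chosen after values had been seen, so they are given with no test.

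COL4A1 over COL4A2 had a geometric mean of 0.439 at D0 and 0.793 later, above both D0 pools in 13 of 14 pools. COL6A2 over COL6A1 was 1.17 and 1.09 at D0 and ended at 0.533 and 0.664 at D15, though the later pools as a whole had a geometric mean of 1.15 against 1.13. A ratio of 3' counts is not a ratio of chains in the protein, and its change between pools is what is described here.

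**Figure D4:**
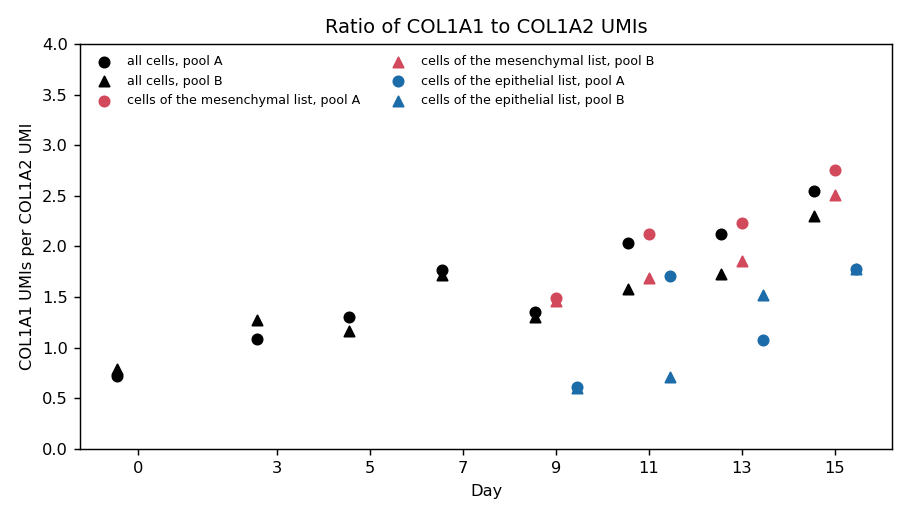
COL1A1 UMIs per COL1A2 UMI (vertical axis) by day, for all cells of a pool (black) and, from D9, for cells with more mesenchymal or more epithelial markers. Circles are pool A and triangles pool B. The ratio of all cells is below 0.8 at D0 and above 2.2 at D15.

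Cells were then sorted to ask which of them held the collagen mRNA. Each cell, thinned to 5000 UMIs, was placed by whether it had more genes of the 15-gene mesenchymal list or of the 15-gene epithelial and pluripotency list, neither of which holds a collagen. No cell fell below that depth. The mesenchymal list was THY1, S100A4, LUM, DCN, PDGFRB, PDGFRA, TAGLN, CAV1, ANXA1, CD44, FBN1, PRRX1, TWIST1, CCDC80 and TIMP3. The other was EPCAM, CDH1, TDGF1, L1TD1, DPPA4, LIN28B, SALL4, DNMT3B, ESRP1, CLDN6, CD24, USP44, TERF1, VRTN and JARID2. The former holds matrix genes such as LUM, DCN and FBN1. The groups are thus not independent of matrix genes, and a lower collagen level on the epithelial side was partly built in. At D0 all 10776 cells were on the mesenchymal side. These cells were 52.1% and 46.8% of the D9 pools, 51.3% and 43.5% at D11, 33.8% and 17.9% at D13, and 8.41% and 11.2% at D15. Of the 17727 cells from D9 to D15, 10990 were on the epithelial side, 6086 on the mesenchymal side and 651 on neither, and 17.3% of the grouped cells lay within 2 markers of the border.

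The same days were compared within cells of the mesenchymal list alone. This comparison was added after the data had been seen. From D0 to D15, 18 of 30 members rose in these cells and 0 fell, against 12.4% and 9.85% of all 12764 genes tested there (edgeR's quasi-likelihood test), whereas whole pools had 7 up and 12 down. The median log2 change was 1.88 in these cells and -0.64 in whole pools. The sign of the whole-pool median turned with the stricter limits on cells, which gave 0.065. D15 A gave only 48 such cells, and without it 16 rose and 0 fell, with COL18A1 and COL8A2 lost. The mesendoderm list moved as well in these cells, at 2.74 and 5.61 CPM at D9, 198 and 41.7 at D11, 62.9 and 105 at D13, and 35.3 and 116 at D15, and its part in the rise was not tested. The share of collagen among all UMIs of these cells was 0.423% and 0.406% at D9, 0.619% and 1.03% at D11, 1.19% and 0.941% at D13, and 1.03% and 0.976% at D15.

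COL1A1 in these cells was 711 and 854 CPM at D0, 1063 and 1031 at D9, 2220 and 3352 at D11, 4920 and 3391 at D13, and 4375 and 4069 at D15. It rose by 2.30 ± 0.42 from D0 to D15 (edgeR's quasi-likelihood test, adjusted p = 0.0010), though its pool level was lower at D15 than at D0. COL4A1 was 10.9 and 11.6 CPM at D0, 123 and 136 at D9, 218 and 460 at D11, 495 and 489 at D13, and 516 and 513 at D15, a rise of 5.39 ± 0.37, and COL4A2 rose by 4.37 ± 0.29. Both fibril-associated COL12A1 (1.57 ± 0.27) and the short-chain genes COL8A1 (2.10 ± 0.29) and COL8A2 (1.65 ± 0.41) rose in these cells while they fell in whole pools. COL11A1 rose by 2.95 ± 0.33, COL5A1 by 2.35 ± 0.28, COL5A2 by 2.14 ± 0.27, COL4A5 by 2.19 ± 0.32, COL7A1 by 1.90 ± 0.36, COL14A1 by 2.67 ± 0.43, COL5A3 by 1.84 ± 0.45 and COL18A1 by 2.05 ± 0.53. COL2A1 (12.54 ± 0.54), COL25A1 (9.36 ± 0.36), COL26A1 (6.35 ± 0.66) and COL9A3 (5.52 ± 0.57) rose here as in the pools.

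The type VI chains did not pass in these cells, with COL6A1 at 523 and 564 CPM at D0 and 353 and 402 at D15 (-0.66 ± 0.47), COL6A2 at 610 and 612 against 272 and 333 (-1.15 ± 0.63), and COL6A3 at 286 and 295 against 520 and 467 (0.63 ± 0.30). COL3A1 (0.24 ± 0.41) and COL1A2 (0.50 ± 0.41) did not pass either. From D9 to D11, 5 members rose in these cells and 0 fell, against 1.3% of all genes that rose, namely COL8A2 (2.38 ± 0.40), COL12A1 (1.95 ± 0.28), COL6A3 (1.80 ± 0.31), COL11A1 (1.77 ± 0.32) and COL8A1 (1.65 ± 0.28). From D7 to D9, where 6 members fell in whole pools, 0 passed in these cells, with a median change of 0.16. Of all 12764 genes tested there, only 3 fell and 45 rose from D7 to D9.

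Within pools of D9 to D15 the members were lower on the epithelial side. Of the 30, 28 were lower and 1 higher there, against 33.7% and 33.8% of 12764 genes, in a test that set both cell groups of each of 7 pools side by side (edgeR's quasi-likelihood test with the pool as a term). D15 A was left out because its mesenchymal group had under 50 cells. The median log2 difference was -2.90. The mesenchymal list used for the sorting holds matrix genes, so part of this split was built in. COL8A1 differed by -4.64 ± 0.38, COL1A1 by -4.51 ± 0.38, COL3A1 by -4.33 ± 0.39, COL15A1 by -4.29 ± 0.36 and COL6A3 by -4.28 ± 0.35. In COL1A1 the mesenchymal group had 1031 to 4920 CPM (median 3352) and the epithelial group 58.9 to 280 CPM (median 88.3), and the groups did not overlap. All 28 of these genes were lower on the epithelial side in each of the 7 pools. The count stayed at 29 with each pool left out in turn and was 27 with D11 A and D13 B both left out.

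COL9A3 was the exception, with 28.2, 33.3, 35.2, 37.9, 52.6, 16.3 and 12.7 CPM on the mesenchymal side and 57.2, 54.1, 57.0, 78.6, 84.8, 25.5 and 25.8 CPM on the epithelial side, in the order D9 A, D9 B, D11 A, D11 B, D13 A, D13 B and D15 B. It was higher on the epithelial side in 7 of 7 pools, by 0.86 ± 0.07 (adjusted p = 1.5e-05, edgeR's quasi-likelihood test). The other 6 tested genes that rose from D0 to D15 in whole pools were lower on the epithelial side. COL2A1 had 36.6 to 75 CPM on the mesenchymal side (median 50.1) and 3.47 to 13 CPM (median 9.98) on the epithelial side, and differed by -2.56 ± 0.27. COL4A1 differed by -3.11 ± 0.22, COL4A2 by -2.77 ± 0.22, COL14A1 by -2.40 ± 0.21, COL25A1 by -1.76 ± 0.33 and COL26A1 by -1.15 ± 0.15. COL18A1, which had not passed from D0 to D15, differed by -1.17 ± 0.10, and COL21A1 did not pass.

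Collagens were 0.108% and 0.0986% of the UMIs of epithelial-side cells in D11 A and D13 B, against 0.0399% to 0.0690% in the other pools. Over all cells of these 2 pools, only 0.0342% and 1.40% of cells had under 0.05% collagen UMIs, against 20.3% in D11 B and 39.4% in D13 A. Droplet counts include free RNA, whose part in this was not tested, so these shares are not read as what the cells themselves held. The COL1A1 to COL1A2 ratio of epithelial-side cells was 1.71 in D11 A and 0.708 in D11 B, and 1.52 in D13 B and 1.08 in D13 A, so on both days it was higher in the pool with the higher collagen share on that side. It was 0.614 and 0.604 at D9 and 1.78 in both D15 pools. Epithelial-side cells of D11 A also held a median of 5 genes of the mesenchymal list, against 2 or 3 in the other pools, and the part of this in their collagen level was not tested. A test of whether the difference between the cell groups itself changed from D9 and D11 to D13 and D15 called 0 members and 0.0% of all genes (edgeR's quasi-likelihood test). At an unadjusted p under 0.05 there were 10 of 30 members, against 22.1% of all genes, and DESeq2 called 0 members, against 3.12%.

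**Figure D5:**
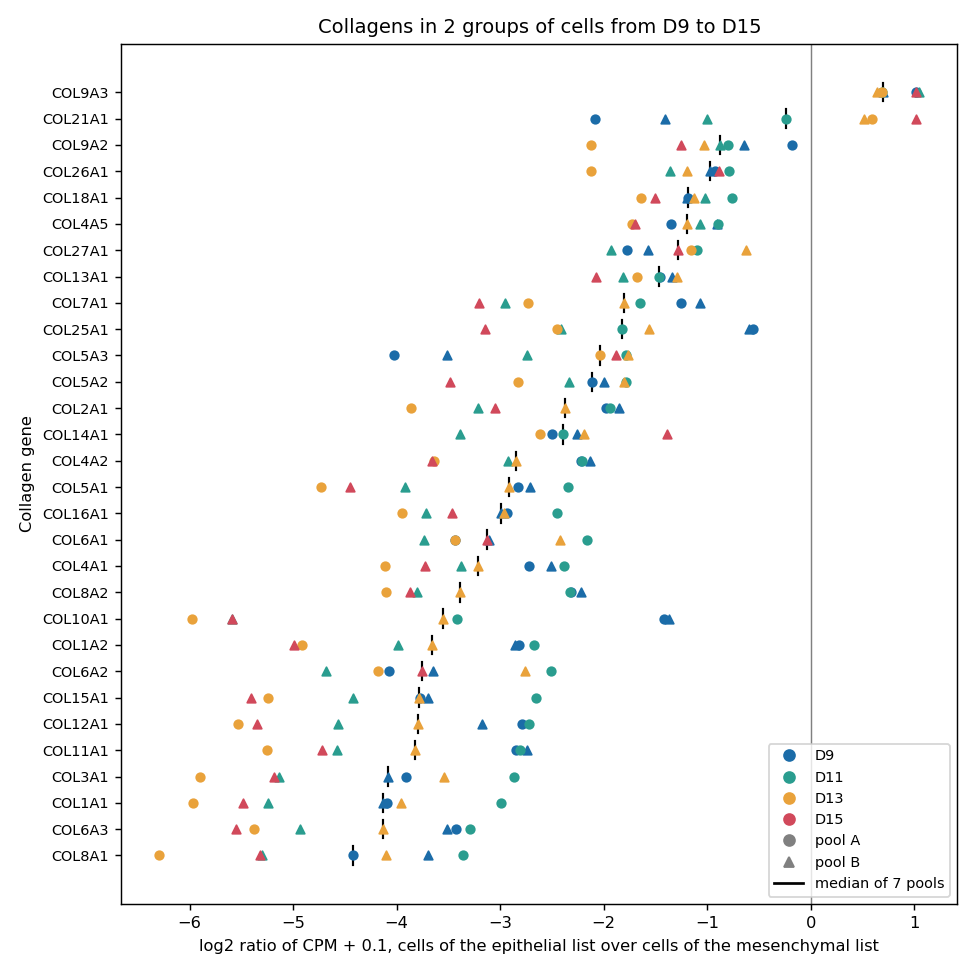
Log2 ratio of CPM plus 0.1 on the epithelial side to that on the mesenchymal side (horizontal axis) for the 30 tested genes, 1 point per pool, coloured by day, with the median of 7 pools as a bar. COL9A3 lies above 0 in every pool, COL21A1 on both sides of 0, and the other 28 genes below 0.

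Per cell, the median share of UMIs from collagens was 0.357% and 0.391% at D0, 0.751% and 0.325% at D5, 0.0866% and 0.0729% at D9, and 0.0366% and 0.0458% at D15. At D9 the median cell lay below that of D0 while the 95th percentile lay above it: the latter was 0.724% and 0.772% at D0, 1.47% and 1.31% at D9, 2.39% and 1.35% at D13, and 0.493% and 0.847% at D15. Thinned to 5000 UMIs, the median cell held UMIs of 7 members in each D0 pool and of 2 in each D15 pool. COL1A1 had a UMI in 93.8% and 94.9% of thinned cells at D0, 48.9% and 46.5% at D9, and 32.8% and 41.8% at D15, and without thinning in 99.2% and 98.8%, 93.5% and 95%, and 89.3% and 90.7%. No cell group of these pools is known to lack type I collagen mRNA, so its background share could not be given.

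COL2A1 had a UMI in 0 of 10776 thinned D0 cells, which allows a share of up to 0.0278% of cells with a UMI at this depth (unthinned, 0.0216% of D0 B cells had one), and in 13.9% and 12.7% of thinned cells at D11 (57.8% and 35.1% unthinned). COL9A3 had a UMI in 0.146% and 0.108% of thinned cells at D0 and 19.4% and 25.1% at D11. Free RNA differs between libraries, so the D0 shares are no background for D11, and no cell group of D11 is known to lack these genes. The D11 shares are therefore shares of cells with a UMI, not of cells that express the gene.

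The 14 untested members stayed low, but several left 0. COL23A1, a membrane collagen, had 0 UMIs at D0 and 45 and 113 in the D15 pools. COL9A1, another type IX chain, had 1 UMI at D0 and 214 at D15, with 2.89 and 1.82 CPM at D15, a ratio of 685 (exact 95% counting interval 122 to 27190). COL20A1, COL22A1 and COL6A5 also had 0 UMIs at D0. In the D15 pools COL20A1 had 6 and 19 UMIs, COL22A1 8 and 3, and COL6A5 6 and 2, too few for a fold to be given. In a fit with no filter on genes, COL4A6 rose by 3.22 ± 0.40 and COL4A4 by 2.30 ± 0.54 from D0 to D15 (edgeR's quasi-likelihood test, adjusted p = 6.7e-08 and 6.3e-04). COL6A6 had 1 and 0 UMIs in the D0 pools and 8 and 3 in the D15 pools.

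In the fit of the 2 cell groups with no filter on genes, 40.9% of 28252 genes were called in either direction. COL9A1 was higher on the epithelial side in that fit by 2.62 ± 0.34 and COL28A1 by 2.01 ± 0.25. COL22A1 was also higher on that side, with at most 4 UMIs on the mesenchymal side of any pool. COL9A1 had 0.581 and 0.751 CPM on the epithelial side against 0.161 and 0.151 on the mesenchymal side at D11, so 2 of the type IX chains, COL9A1 and COL9A3, were higher on that side. The remaining one, COL9A2, was lower there by 0.98 ± 0.21. COL19A1 (-3.22 ± 0.37), COL24A1 (-2.10 ± 0.26) and COL6A5 (-1.60 ± 0.45) were lower on the epithelial side. COL19A1 overlaps LMBRD1 on the other strand, which reached 16.8 CPM. The untested members not named so far, COL11A2 and COL17A1, reached 0.710 and 0.512 CPM.

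The enzymes that make and cross-link collagen were read beside the chains. Of a list of 30 genes for hydroxylation, folding, cleavage and cross-linking, 26 were tested (not ADAMTS3, ADAMTS14, COLGALT2 and TLL1). From D0 to D15, 2 rose and 13 fell, against 26.8% and 26.7% of all genes. P3H2, a prolyl 3-hydroxylase active on type IV collagen, rose by 2.30 ± 0.45, and PCOLCE2, an enhancer of procollagen cleavage, by 0.82 ± 0.22. LOXL1 (-3.85 ± 0.47), PCOLCE (-2.87 ± 0.35), LOXL3 (-2.58 ± 0.39) and LOX (-2.25 ± 0.33), of which 3 are lysyl oxidases that cross-link chains, had the largest falls among the genes that passed. LOXL4, another lysyl oxidase, had a change of -2.95 ± 0.91 that did not pass (adjusted p = 0.012). Between adjacent days 1 of the 26 rose from D3 to D5 and 1 from D9 to D11, against 3.2% and 2.92% of all genes. They were P3H2 from D3 to D5 (2.48 ± 0.46) and P4HA2, a prolyl 4-hydroxylase subunit, from D9 to D11 (1.45 ± 0.29).

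On the epithelial side 25 of the 26 were lower and 1, PCOLCE2 (0.78 ± 0.12), higher, against 33.7% and 33.8% of all genes. LOXL4 (-4.51 ± 0.42), LOX (-4.12 ± 0.32), P4HA3 (-3.78 ± 0.32) and LOXL1 (-3.75 ± 0.26) differed most. Here too, the sorting by a list with matrix genes built in part of the split. Of 10 collagen receptors 7 were tested (not GP6, LAIR1 and OSCAR). From D0 to D15, 4 of the 7 fell and 0 rose, against 26.7% and 26.8% of all genes. Those that fell were the receptor kinase DDR2 (-3.86 ± 0.37), the integrin chains ITGA10 (-3.21 ± 0.32) and ITGA2 (-3.18 ± 0.42) and the uptake receptor MRC2 (-2.05 ± 0.34). ITGA10 fell from D7 to D9 (-1.71 ± 0.31) and rose from D9 to D11 (1.82 ± 0.31) with ITGA11 (1.61 ± 0.33), and MRC2 fell from D0 to D3 (-1.39 ± 0.33). Of all genes, 2.78% fell from D7 to D9, 2.92% rose from D9 to D11 and 12.6% fell from D0 to D3. On the epithelial side 6 of 7 receptors were lower and 0 higher, led by ITGA11 (-4.21 ± 0.38), DDR2 (-2.68 ± 0.24), ITGA10 (-2.54 ± 0.26) and ITGA1 (-2.52 ± 0.31).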

How the data were processed

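Single-cell RNA was captured by droplets with 3' tags. The deposited values are raw UMI counts per gene and cell barcode, which the authors made with Cell Ranger 2.2 (per the submitters' processing notes) on GRCh38, with no normalization. The 22 libraries were summed by cell into 16 pools. Cells under 1000 genes or over 10% mitochondrial UMIs were dropped, no doublet caller was run, and levels are UMIs per 1000000 UMIs of a pool (CPM). Pool sums were tested with edgeR 4.0.16 in R 4.3.3 (the quasi-likelihood test with TMM factors, fitted to the 16 pools together, with a call at a Benjamini-Hochberg adjusted p under 0.01 and a log2 change over 0.25) on genes found in at least 5% of cells, after a check on simulated counts. The fit of the 2 cell groups had the pool as a term. DESeq2 1.42.0 was an alternative. Python 3.11.15 (numpy 2.4.6, pandas 2.3.3, scipy 1.17.1, matplotlib 3.10.9) did the rest. Coordinates are from gencode on GRCh38.

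The members and lists were chosen with earlier results of these data known, so they are not independent of them. Members at 10 CPM or more in both pools of a day, and members called in a comparison, are named with values, and from the other lists up to 4 genes each way per comparison. Other alternatives were DESeq2 size factors, no gene filter, an adjusted p under 0.05, thinned sums, only the 4 pools compared, a block on the pool letter, and each pool left out. Stricter limits on cells (2000 genes, 5% mitochondrial UMIs) were planned for the collagen share, and their use in the day comparisons, which left the cell groups out, was added after seeing the data. So were the fits of mesenchymal-list cells alone, of the second D9 libraries alone, and without D11 A and D13 B together. Cell groups were also compared without the 5% of cells with the most UMIs. Depth limits precision: intervals cover counting error only. Motifs were searched in the 250 bases before each RefSeq start.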

Additional observations from a re-analysis of the deposited data

Results flagged for a closer look

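Among the 30 tested genes, 2 results stood out. The difference in COL21A1 between cells of the epithelial and the mesenchymal side changed sign over time: its mean log2 ratio was -1.18 in the D9 and D11 pools and 0.71 in the D13 and D15 pools, a difference of 1.89, and all pools of each period lay on the same side of 0. The fitted change of this difference was 1.94 ± 0.49 (SE) with an adjusted p of 0.11 (edgeR's quasi-likelihood test), so it did not pass. COL21A1 is a low gene, with 5 to 23 UMIs on the mesenchymal side of the tested D13 and D15 pools.

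For COL26A1, pool D13 A stood apart from the other pools, with a log2 ratio of -2.12 between the sides against -1.36 to -0.79 in the others. The mesenchymal side of that pool had 80.4 CPM and the epithelial side 18.4 CPM. Chance marks about 1 in 20 such groups of pools, and 30 were examined.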

How the results depend on the processing

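The counts of called collagens between adjacent days depended on the settings more than those of D0 against D15 or of the cell groups. For D0 to D3 (5 called) the count was 10 with DESeq2, 15 with an adjusted p under 0.05 and no limit on the fold, 11 with no filter on genes (44 members tested), 0 with only the 4 pools compared, and 3 to 7 with 1 pool left out. For D3 to D5 (5) it was 9 with DESeq2, 9 at 0.05, 1 with 4 pools, 3 in cells of the mesenchymal list, 3 with the stricter limits on cells, and 2 to 3 with 1 pool left out. For D5 to D7 (1) it was 3 with DESeq2, 0 in mesenchymal cells, 0 with the stricter limits on cells, and 0 to 1 with 1 pool left out. For D7 to D9 (6) it was 11 with no filter, 3 with 4 pools, 0 in mesenchymal cells, 2 with the second D9 libraries alone, and 0 to 7 with 1 pool left out. For D9 to D11 (4) it was 11 with DESeq2, 11 at 0.05, 12 with no filter, 14 with 4 pools, and 0 to 1 with 1 pool left out. For D11 to D13 (0) it was 1 with DESeq2, 1 with no filter and 0 with each pool left out. For D13 to D15 (0) it was 7 with DESeq2, 7 at 0.05, 12 with no filter, 1 with sums thinned to the smallest pool, and 0 to 2 with 1 pool left out. For D0 to D15 (19) it was 29 with no filter, 14 with the stricter limits on cells (where COL8A1 changed by 0.182) and 15 to 17 with 1 pool left out. With only the 4 pools compared the count for D0 to D15 was 28. With the stricter limits on cells the count was 4 for D7 to D9 and 3 for D9 to D11. The shares of all genes called in either direction moved as well. From D0 to D3 and so on to D13 to D15, they were 34.1%, 6.95%, 4.77%, 12.9%, 9.36%, 3.7% and 5.11% with DESeq2, so that the 10 of 30 members from D0 to D3 lay near the share of all genes. They were 40.3%, 7.11%, 4.31%, 14.1%, 9.57%, 2.49% and 4.09% at 0.05, 15%, 2.84%, 1.7%, 6.5%, 5.02%, 1.17% and 1.81% with no filter, and 0.0%, 0.211%, 1.27%, 6.19%, 8.34%, 0.0% and 0.0% with 4 pools. For D0 to D15 the share was 38.4% with no filter, 74.0% with 4 pools and 44.9% with the stricter limits on cells. Sums over mesenchymal-list cells had 0.0783% of all genes called for D5 to D7, 0.376% for D7 to D9 and 2.03% for D3 to D5. The 0 members called there for D5 to D7 and for D7 to D9 thus lay near the share of all genes. Under the stricter limits the shares were 1.74% for D5 to D7, 6.66% for D7 to D9, 2.99% for D3 to D5 and 3.0% for D9 to D11. Apart from the different members tested without the filter and the fewer pools, the cause was not tested.

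In cells of the mesenchymal list alone, 8 members that fell from D0 to D15 in whole pools had a log2 change above 0: COL16A1 0.044, COL8A2 1.65, COL3A1 0.24, COL6A3 0.63, COL8A1 2.10, COL12A1 1.57, COL1A2 0.50 and COL15A1 0.51. With D15 A also left out the values were COL8A2 1.62, COL3A1 0.042, COL6A3 0.535, COL8A1 2.07, COL12A1 1.40, COL10A1 0.077, COL1A2 0.50, COL15A1 0.69 and COL13A1 0.069. By construction, these sums leave out the cells of the epithelial side, 89.8% and 87.7% of cells in the D15 pools.

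Pool letters are not stated to pair the days. Deviations of same-lettered pools from their day means correlated at -0.41 to 0.81 over 28 pairs of days (median -0.03), so no pairing was used. With the letter as a replicate block the counts, from D0 to D3 onward, were 7, 6, 1, 5, 5, 0, 0, and 19 for D0 to D15. With 2 pools per day, low members and changes near the limit are the least certain.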
